A study of Mus musculus with 8 samples.

Results

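RNA from sorted mouse splenic follicular B cells was sequenced in 8 libraries titled fo1g to fo8g, and the 4 libraries with later title numbers (fo5g to fo8g) were compared here with the 4 with earlier numbers (fo1g to fo4g), with genotype as a covariate. All 8 of the 8 libraries in the series enter the comparison. The odd numbers are controls whose label gives the Rosa26GFPZFP36L1 allele alone, and the even numbers carry the same allele with CD23cre/+, so each side holds 2 libraries of each genotype. ZFP36L1 is an RNA-binding protein that promotes decay of messages with AU-rich elements, and the study set cells expressing a GFP-ZFP36L1 fusion beside cells that do not. The allele is thus shared by all 8 libraries, and the Cre, driven from the CD23 (Fcer2a) gene, acts in mature B cells that express it. Cells were enriched with a B cell isolation kit and sorted on B220, CD93, CD21 and CD23. The labels give no age or sex, do not say what the title number stands for (animal, day, extraction or lane), and do not say whether the libraries come from separate animals. Every error below is therefore the spread between libraries, which may be technical.

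The 2 sets were chosen by measured values: the first principal component of log2 CPM (counts scaled to a library of 1000000), which held 34.8% of the variance, rose with title number within each genotype. Its scores were -24.52, -13.87, -7.62 and -3.11 in the controls fo1g, fo3g, fo5g and fo7g, and -8.20, 7.39, 14.66 and 35.28 in the GFP-ZFP36L1 libraries fo2g, fo4g, fo6g and fo8g. The scores nearest the line between the sets were -13.87 and -7.62 in controls and 7.39 and 14.66 in GFP-ZFP36L1 libraries, and in neither genotype was the step across it the largest between neighbouring libraries. On the first component the GFP-ZFP36L1 mean also lay 24.6 above that of the controls. The second component, with 20% of the variance, fell with title number within each genotype. It went from 7.94 in fo1g to -19.12 in fo7g and from 20.66 in fo2g to -2.51 in fo8g. Hsph1, Hspa1a and Dnaja1 were among its highest loadings at a mean of 5 CPM or more. Because every gene entered the first component, later minus earlier values are given below as a description. A gene is named as called where its Benjamini-Hochberg adjusted p in the quasi-likelihood fit of edgeR was under 0.05, and these calls are counted only to order the account. Tests between genotypes are given with the limit this choice sets. A permutation of the sets within genotype has 36 assignments, and its smallest 2-sided p is 0.0556.

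Library totals ran from 38947758 to 51024233 gene counts, and all 4 later libraries were shallower (38947758 to 42742853) than all 4 earlier ones (43285538 to 51024233). With all libraries thinned to the shallowest total, the same fit called 42 genes, of which 37 were among the 40 called on the full counts. Zfp36l1 itself was at 523 to 600 CPM in the controls and at 401 to 471 CPM in the libraries labelled GFP-ZFP36L1, lower where the fusion is labelled, and whether reads of the fusion are counted to this gene is not stated. Libraries are called by their labelled genotype throughout. Gt(ROSA)26Sor, the transcript of the targeted locus, separated the labels at 13.6 to 20 against 3.16 to 4.46 CPM. B cell genes were high in every library (Ms4a1 at 1770 to 2140 CPM and Fcer2a at 1110 to 1550), and the counts of Cd3e summed to 3 and those of Ncr1 to 0 over all 8. The 18 T cell markers together summed to 249 to 276 CPM in earlier and 210 to 274 CPM in later libraries. Most of that sum was Cd2, at a mean of 217 CPM. The Y-linked Ddx3y was at 152 to 200 CPM and Xist at no more than 0.221 CPM in all 8. Cd93, which the labels give as positive in the gate, was low: 8.41 to 10.3 CPM in earlier and 10.2 to 14.6 CPM in later libraries. Whether that sign in the label is right cannot be told from these values.

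Heat shock proteins are molecular chaperones that hold and fold other proteins. In the cytosol, HSP70 and HSP110 proteins take up unfolded chains with the help of J-domain proteins, HSP90 finishes the folding of kinases and receptors with a set of co-chaperones, and the ring-shaped CCT complex folds actin and tubulin. Many of their genes share a regulator, heat shock factor 1, which binds arrays of the 5-base unit nGAAn in alternating orientation upon heat or other protein-damaging stress.

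Genes of the heat shock and chaperone list made up 7 of the 26 genes called lower in later libraries (0.193% of all genes tested), and 4 members (Hspd1, Hspe1, Chordc1 and Hsph1, the last not called) hold in their promoter windows an array of 3 such units, spelled GAANNTTCNNGAA on one strand and TTCNNGAANNTTC on the other. They are shown because most of that list lay lower in later libraries, with Eme2 as a gene that did not, and the capitals mark the bases inside a match. Each stretch of 30 bases is RefSeq sequence of GRCm38.p6, written on the gene's own strand.
Hspe1 and Hspd1, chr1:55088053-55088082, plus strand: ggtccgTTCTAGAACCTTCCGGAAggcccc
Chordc1, chr9:18292260-18292289, plus strand: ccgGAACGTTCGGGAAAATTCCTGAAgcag
Hsph1, chr5:149636279-149636308, minus strand: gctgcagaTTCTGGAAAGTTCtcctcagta
Eme2, chr17:24895051-24895080, minus strand: tacgtccgGAAGCTTCAGGAAcgaaggact
Hspd1 and Hspe1 start head to head, and the same overlapping pair of matches lies upstream of both, at -144 to -127 from the Hspd1 start and -89 to -72 from the Hspe1 start, with the start counted as 0. In Chordc1, 3 overlapping matches ran from -4 to 18 across the start. The match lay at 15 to 27 in Eme2 and, from the nearer of its 2 annotated starts, in Hsph1. Eme2, a structure-specific nuclease subunit, was called in the opposite direction, higher in later libraries. Windows of 300 bases (250 before and 50 from the start) were present for 16 of the 20 genes of the heat shock list. Of those 16, 4 (25%) held the array, against 0.662% of all 27025 genes with a window and 0.538% of the 9485 tested ones. Hspd1 and Hspe1 count as 2 of the 4 though they share their matches. The element was chosen after the values were seen, for a list of which many genes share the regulator that binds it. The share therefore says nothing about the library order. Hspa1a, Hspa1b, Dnajb1, Dnaja1, Ahsa1, Fkbp4, Stip1 and Cacybp held no exact match, which says only that these letters are not in those windows. There is no entry for Hspa8, Hsp90aa1, Hsp90ab1 and Hsf1. Among genes with a window, the array was in 3 of 19 called lower (Hspd1 and Hspe1 among them), 1 of 10 called higher and 0 of 7 CCT genes. A match is a description and not a shown binding site.

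Across all 13486 genes tested, 40 were called between the sets: 14 higher in later libraries (0.104%) and 26 lower (0.193%). The heat shock and chaperone list held 7 of the 26: Hspa8, Hsp90ab1, Hspd1, Hspe1, Chordc1, Ahsa1 and Fkbp4. Of its 19 tested members 18 lay below 0, and their median later minus earlier value was -0.54 on the log2 scale (-0.59 within controls and -0.57 within GFP-ZFP36L1 libraries), against 0.00 for all genes tested. In 15 of the 19, no later library reached any earlier library of its genotype, where 9.31% of all genes did so downward and 8.34% upward. These counts describe the contrast that chose the sets and nothing is read from them. The set of 40 depended on single libraries: it became 2 without fo1g, 18 without fo2g, 224 without fo3g, 11 without fo5g, 238 without fo6g, 1 without fo7g and 14 without fo8g. The list's median was between -0.46 and -0.68 under each of these and the other alternatives run.

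Hspa8 (ENSMUSG00000015656, chr9:40800984-40810087, GRCm38), the constitutive cytosolic HSP70, fell by 0.79 ± 0.13 (SE) on the log2 scale, or 1.73-fold. Its level was 1781, 1931, 996 and 1024 CPM in the controls fo1g, fo3g, fo5g and fo7g. In the GFP-ZFP36L1 libraries fo2g, fo4g, fo6g and fo8g it was 1911, 1958, 1485 and 897 CPM. Both later controls lay close together, whereas fo6g sat midway between the earlier libraries and fo8g, and the sets did not overlap in either genotype. Hsph1, the HSP110 exchange factor that resets HSP70, was at 230, 267, 104 and 116 CPM in controls and at 255, 349, 202 and 107 CPM in GFP-ZFP36L1 libraries. Its difference of -1.07 ± 0.22 was the most negative of the list, yet it was not called, and fo6g again stood between the earlier libraries and fo8g. Without fo6g its difference was -1.30. Of the J-domain partners of HSP70, Dnaja1 differed by -0.90 ± 0.20 and Dnajb1 by -0.77 ± 0.23, with no call. Most others were nearer 0: over 15 cytosolic J-domain genes, a list drawn up after the values were seen, 13 lay below 0 at a median of -0.09, the highest was at 0.10, 5 had no overlap downward and none was called. Hspa4 and Hspa4l, further HSP110 proteins, differed by -0.14 ± 0.05 and -0.47 ± 0.10.

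The stress-inducible HSP70 genes did not follow the sets. Hspa1b was at 50.5, 84.1, 29.4 and 25.3 CPM in controls and at 49.4, 72.5, 107 and 34.2 CPM in GFP-ZFP36L1 libraries. The later controls lay below the earlier ones, but fo6g was the highest of all 8 libraries. Hspa1a was likewise highest in fo6g, with 8.03, 14.3, 3.59 and 3.22 CPM in controls and 7.08, 11.3, 19.8 and 7.17 CPM in the others. Both genes are near-identical copies next to each other, so their reads may have been split or set aside in counting. Bag3, a co-chaperone that links HSP70 to autophagy, was below 0.5 CPM in every library. The regulator's own gene, Hsf1, was level, at 69.9 to 77.5 CPM in controls and 66.4 to 71.6 CPM in GFP-ZFP36L1 libraries, with a difference of 0.01 ± 0.05 that changed sign among alternatives.

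Hsp90ab1 (ENSMUSG00000023944, chr17:45567775-45573271), the constitutive cytosolic HSP90, fell by 0.51 ± 0.08, or 1.42-fold. It was at 1861, 2103, 1391 and 1348 CPM in controls and at 2073, 2249, 1718 and 1381 CPM in GFP-ZFP36L1 libraries, with no overlap. Hsp90aa1, the inducible HSP90, was at 458, 590, 276 and 289 CPM and at 527, 702, 456 and 296 CPM, a difference of -0.80 ± 0.16 that was not called. It was called without fo6g, at -0.95. Among the HSP90 partners, Ahsa1, which speeds its ATPase, fell by 0.58 ± 0.08, and Fkbp4, a peptidyl-prolyl isomerase of steroid receptor complexes, fell by 0.54 ± 0.07. Chordc1, an HSP90-binding protein, was at 126, 121, 86.3 and 87.5 CPM in controls and at 128, 148, 105 and 87.5 CPM in GFP-ZFP36L1 libraries, a fall of 0.52 ± 0.06. Ptges3, the p23 co-chaperone, fell by 0.49 ± 0.07, and St13, which joins HSP70 to HSP90, fell by 0.38 ± 0.06. Stip1, the adaptor that bridges HSP70 and HSP90, was not called at -0.80 ± 0.14, nor was Cacybp at -0.72 ± 0.13. In a list of 18 HSP90 genes and co-chaperones drawn up after these values were seen, 15 lay below 0 and 6 were called lower. The other partners were closer to 0: Cdc37, the kinase adaptor, differed by -0.10, Ppp5c by 0.06 and Unc45a by 0.09.

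Hspd1 and Hspe1, the mitochondrial HSP60 and its lid HSP10, fell by 0.54 ± 0.06 and 0.50 ± 0.07. Hspd1 was at 221, 235, 159 and 157 CPM in controls and at 232, 249, 181 and 147 CPM in GFP-ZFP36L1 libraries. Hspe1, which shares its promoter, was at 124, 123, 93.8 and 81.5 CPM and at 121, 134, 100.1 and 80.0 CPM. Neither gene overlapped between sets in either genotype. Of 11 mitochondrial chaperones and proteases, a list also drawn up after the values were seen, these were the 2 called, and Trap1 and Lonp1 differed by 0.08 each.

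The lists of CCT, prefoldin and proteasome genes were drawn up after the values were seen, so their counts are a description. All 8 CCT subunits lay below 0, with a median of -0.27, and Cct3, Cct4 and Cct7 were called lower. Cct4 was at 281, 275, 230 and 221 CPM in controls and at 285, 282, 249 and 214 CPM in GFP-ZFP36L1 libraries, a fall of 0.30 ± 0.06. The fall of Cct4 was smaller than those of Hspa8 and Hsp90ab1. In 7 of the 8 subunits each later-numbered library was below the one before it in both genotypes, as in 3.51% of all genes downward (1.8% upward). Prefoldin, which hands chains to CCT, had 6 of 6 subunits below 0 at a median of -0.17, with none called. The proteasome had 31 of 31 below 0 at a median of -0.12, with none called. In the endoplasmic reticulum, the list of unfolded protein and amino acid response genes had 18 of 21 below 0 at a median of -0.11 and none called, and its chaperone Hspa5 (BiP) differed by -0.21 ± 0.08. Over the wider families, also listed after the values were seen, 14 of 15 cytosolic HSP70, HSP110 and BAG genes lay below 0 at a median of -0.14 with 1 called (Hspa8). The HSP90 list above had a median of -0.21. Differences between lists were not tested.

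**Figure D1:**
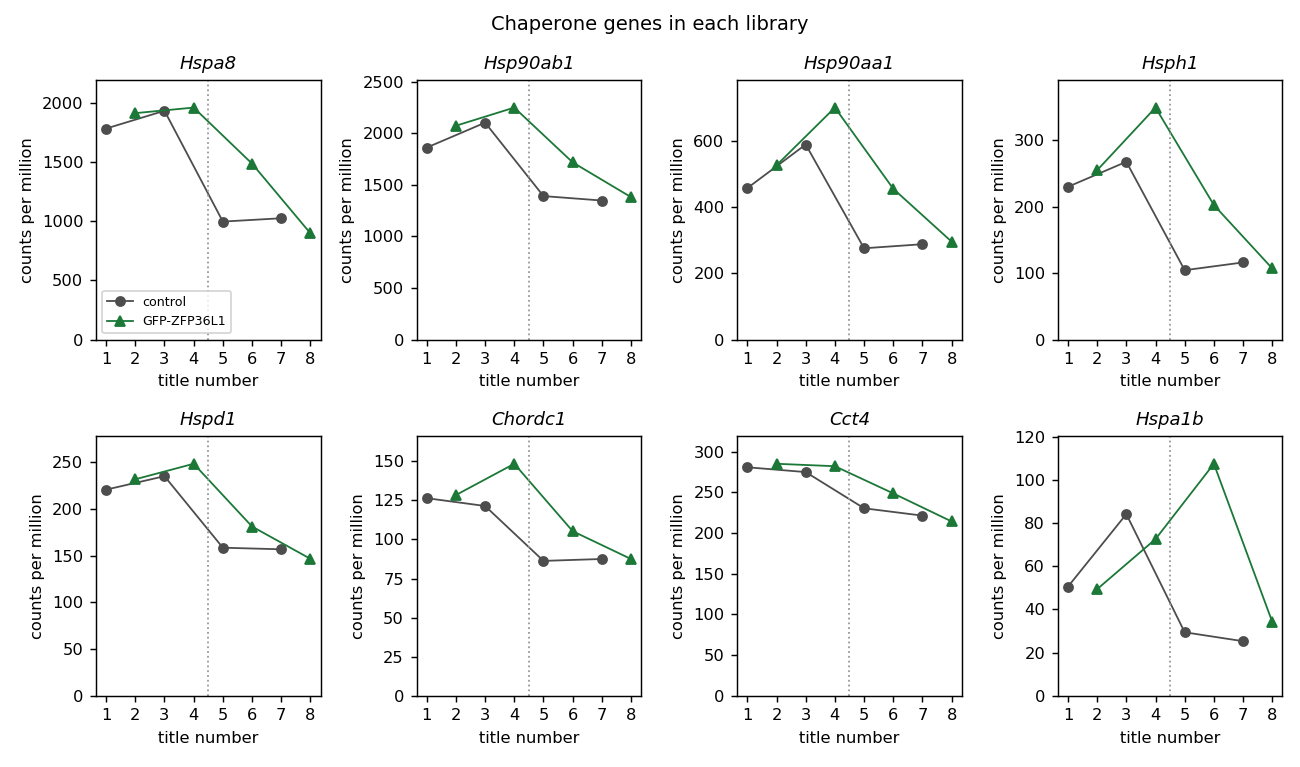
CPM (vertical axes, from 0) of 8 chaperone genes by title number (horizontal axes), with circles for controls, triangles for GFP-ZFP36L1 libraries and a dotted line between the sets; each point is 1 library. Hspa8 falls from 1781 and above to 1485 and below, while Hspa1b is highest in fo6g at 107.

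Counts over Gm42418 and Lars2 (listed after the values were seen), where ribosomal RNA reads are known to collect, were also lower in later libraries. Their sum was 2980 to 3760 CPM in earlier and 2090 to 2480 CPM in later libraries, with no overlap. Gm42418 fell by 0.54 ± 0.10 and Lars2 by 0.56 ± 0.10. The sum moved with the same sets as the chaperone genes, and its part in their change was not tested. Platelet and megakaryocyte markers summed to 5.92 to 8.37 CPM in earlier and 7.66 to 12.1 CPM in later libraries, with 6 of 6 tested members above 0 and none called. The members' median difference was -0.01 within controls and 1.01 within GFP-ZFP36L1 libraries, at a median level of 1.1 CPM. In edgeR no member was called for a difference between the genotypes in this value. Erythroid markers summed to 98.3 to 114 CPM in earlier and 97.3 to 113 CPM in later libraries. The 8 tested members had a median level of 0.89 CPM, so that sum says little about most of them. Of these, 7 lay above 0, none was called and 3 were called higher with title number fitted as a straight line. Their median difference was 0.95 (1.51 within controls and 0.24 within GFP-ZFP36L1 libraries). The globin Hbb-bs was highest in fo7g at 8.05 CPM and between 1.47 and 4.88 CPM elsewhere. Of the 13 neutrophil markers 6 were at 0 in every library, among them Ly6g and Elane, and the 13 summed to at most 0.285 CPM. Of the 10 natural killer cell markers 5 were at 0 throughout, and the 10 summed to 2.13 to 3.06 CPM in earlier and 2.23 to 3.82 CPM in later libraries. Monocyte and macrophage markers summed to 11.9 to 13.9 CPM in earlier and 12.8 to 14.2 CPM in later libraries. In bulk RNA, fewer cells of a type and less RNA per cell cannot be told apart.

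The called genes outside the chaperones included regulators of B cell and immune function. Bcl6 (ENSMUSG00000022508, chr16:23965052-23988852), the repressor that germinal centre B cells require, fell by 0.58 ± 0.09, or 1.49-fold. It was at 154, 138, 104 and 104 CPM in controls and at 147, 155, 110 and 80.2 CPM in GFP-ZFP36L1 libraries, with no overlap. It was the single called gene of the 13 tested in the germinal centre list, 8 of which lay below 0. Mavs, the mitochondrial adaptor of RNA sensing, fell by 0.44 ± 0.08, and Cybc1, needed to assemble the phagocyte NADPH oxidase, fell by 0.48 ± 0.08. Ywhah, a 14-3-3 protein, fell by 0.40 ± 0.07. BC035044 (ENSMUSG00000090164, chr6:128849090-128891126) was called under all 20 alternatives, with differences between -0.62 and -0.49. It was at 51.3, 50.4, 33.8 and 32.8 CPM in controls and at 55.2, 57.5, 39.2 and 36.3 CPM in GFP-ZFP36L1 libraries, and the 2 later libraries of each genotype lay close together.

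Among the 14 genes called higher, Col27a1 (ENSMUSG00000045672, chr4:63214004-63334991), a fibrillar collagen gene, rose by 0.91 ± 0.13, or 1.87-fold. It was at 9.75, 15.1, 20.7 and 22.5 CPM in controls and at 11.2, 12.8, 22.4 and 26.3 CPM in GFP-ZFP36L1 libraries, so each library was above the one before it in both genotypes. Cdk5rap1, which modifies mitochondrial transfer RNAs, rose by 0.69 ± 0.13. Its levels were 8.89, 8.45, 18.8 and 16.3 CPM in controls and 7.79, 8.79, 10.4 and 10.6 CPM in GFP-ZFP36L1 libraries, a difference of 1.02 in the former and 0.34 in the latter. The difference between the genotypes was not called (edgeR adjusted p = 1). Smaller rises were called in Ccdc17 (0.61), Xlr4b (0.49), Zfhx2 (0.49), Cyb5rl (0.45), Tex9 (0.44), Eme2 (0.36) and Crocc (0.30). The direction split of the called genes moved with the scaling: upper-quartile factors gave 24 higher and 24 lower.

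**Figure D2:**
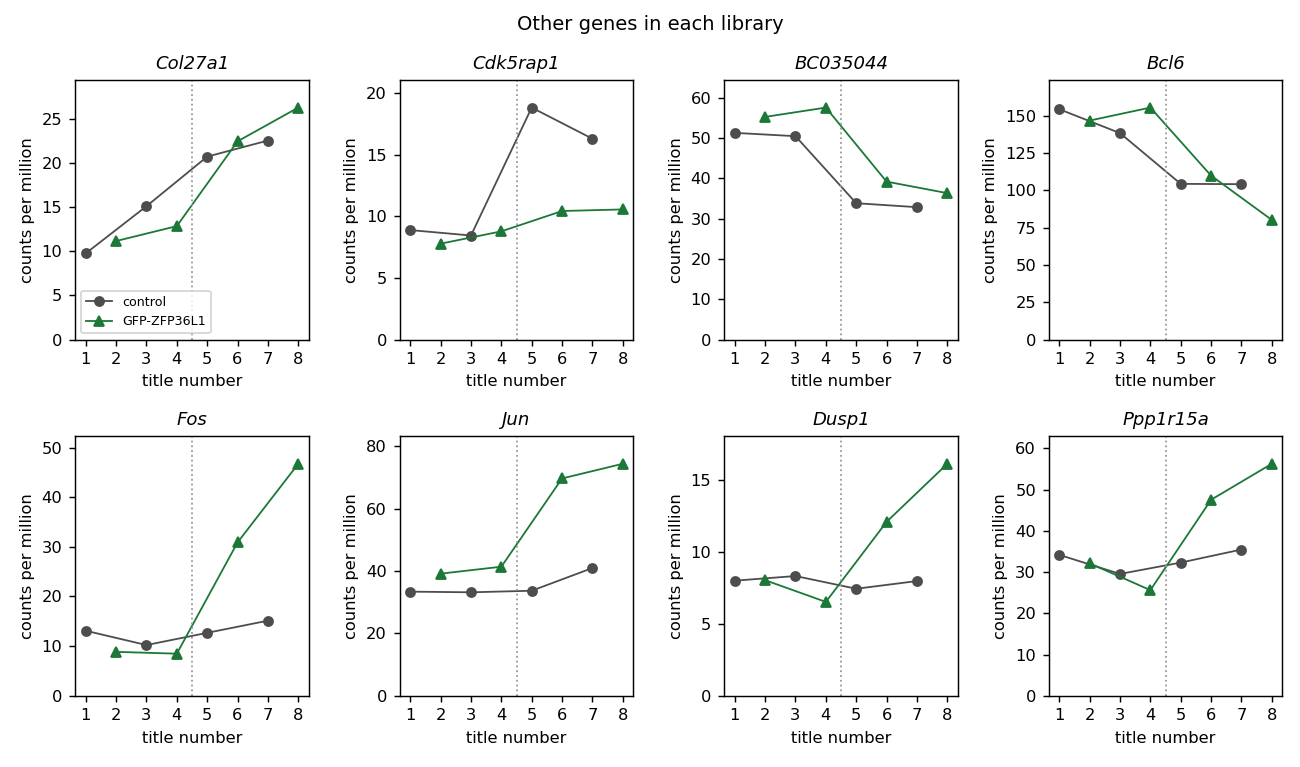
CPM (vertical axes, from 0) of 8 other genes by title number (horizontal axes), with circles for controls, triangles for GFP-ZFP36L1 libraries and a dotted line between the sets; each point is 1 library. Col27a1, Cdk5rap1, BC035044 and Bcl6 move the same way in both genotypes, while Fos reaches 46.7 in fo8g and stays at or below 15.1 in controls.

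With title number fitted as a straight line instead of 2 sets, 2712 genes were called, 1149 higher (8.52%) and 1563 lower (11.6%), and they included 38 of the 40. A strict order of all 4 libraries in both genotypes was seen in 716 genes, 243 of them higher and 473 lower with title number, and a further 43 were ordered in opposite directions. Upper-quartile factors turned that split to 351 higher and 304 lower. The genes closest to a straight upward line in both genotypes, by the smaller of the 2 Pearson correlations with title number over 4 libraries each, included Impact, Pcnx3, Slc38a9 and Snapc4. Slc38a9, the lysosomal arginine sensor of mTORC1, went from 67.8 to 81.3 CPM in controls and from 60.5 to 85.7 CPM in the others. Downward, the closest were Prmt7, Rbbp4, Prcp, Mapk14 and Tmem50b. Rbbp4, a histone-binding subunit of chromatin complexes, was at 232, 224, 215 and 202 CPM and at 235, 216, 205 and 186 CPM. None of these genes was called between the sets.

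The graded order varied with transcript length and with expression level. With protein-coding genes put into 5 equal bins by their longest annotated transcript, the median later minus earlier value went from -0.08 in the shortest to -0.02, -0.01, 0.02 and 0.06 in the longest. The share called lower by the straight line went from 28.7% in the shortest bin to 2.09% in the longest, and the share called higher went from 1.82% to 23.5%. Over 5 bins of GC content the medians stayed between -0.01 and 0.01. Over 5 bins of mean level the medians ran from 0.15 in the lowest, where 69.7% of genes were above 0, to -0.03 in the highest. That range of medians was wider than the one over length. From the lowest to the highest level bin the share called lower by the straight line went from 0.889% to 20.1%. The share called higher was 7.87% in the lowest and 10.3% in the highest, so it did not mirror that rise. The per-library medians show that the length pattern is not a step between the sets. In the shortest bin, centred on the mean of each genotype, they were 0.12, -0.02, -0.03 and -0.06 in the controls and 0.10, -0.02, 0.03 and -0.09 in the GFP-ZFP36L1 libraries. The outermost numbers of each genotype carried most of it, fo3g and fo5g were alike, and fo6g lay above fo4g.

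**Figure D3:**
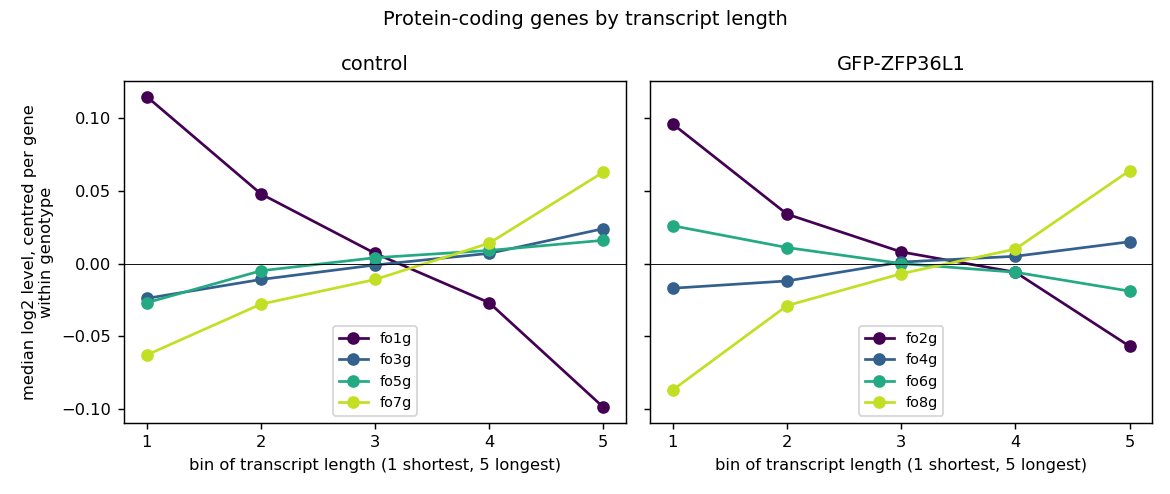
Median log2 level of protein-coding genes, centred per gene on its genotype's mean (vertical axis), against the bin of transcript length from shortest to longest (horizontal axis), with 1 line for each library. The lines of fo1g and fo2g fall from 0.12 and 0.10 to -0.10 and -0.06, and those of fo7g and fo8g rise to 0.06.

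Lists of housekeeping and B cell genes were then set beside the order. Of 49 cytosolic ribosomal protein genes 47 were below 0, at a median of -0.20, none was called between the sets, and 45 were called lower by the straight line. Nuclear genes of oxidative phosphorylation had 37 of 38 below 0 at a median of -0.16, none called, and 25 were called lower by the line, such as Cox7a2 and Ndufa4. The actin cytoskeleton list had 25 of 27 below 0 at -0.16, none called and 16 by the line. Actb, cytoplasmic beta-actin, went from 4463, 4017, 3957 to 3528 CPM in controls and from 4165, 3504, 3302 to 2717 CPM in GFP-ZFP36L1 libraries. For MHC class II and peptide loading, 13 of 16 were below 0 at -0.14, with none called and 8 by the line, among them H2-Aa, H2-Eb1 and Cd74, which present antigen to helper T cells. The B cell receptor signalling list had a median transcript of 3328 bases against 3049 for all tested genes, and a median level of 394 CPM against 23.4. Of its genes 23 of 27 were below 0 at -0.08, with none called and 9 by the line. The part of length or level in this was not tested. In contrast, all 20 genes of a list of very long chromatin and giant-protein genes, drawn up after the values were seen, were above 0 at a median of 0.22, none was called between the sets and 19 were called higher by the line. Kmt2d, a histone H3 lysine 4 methyltransferase, was at 409, 539, 590 and 648 CPM in controls and at 401, 550, 520 and 630 CPM in the others.

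Values with length taken into account were as follows. With the trend of each library on length and GC removed, the heat shock list's median was -0.58, and that of the giant-protein genes went from 0.22 to 0.09. Within the third length bin the 5 heat shock genes had a median of -0.77 against -0.01 for the other genes, and within the longest bin 3 had -0.52 against 0.06. Other lists also differed from the rest of their length bin. In the shortest bin the ribosomal protein genes had -0.20 against -0.08, and in the longest the giant-protein genes had 0.22 against 0.06. The longest bin starts at 5213 bases and the giant-protein genes have a median of 13440, so it does not match their length. Expression level was not matched either: the ribosomal list had a median of 916 CPM against 23.4 for all tested genes. The part of length in the chaperone values was not tested. With the trend removed, 106 genes were called between the sets (25 higher and 81 lower), 39 of them among the 40.

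**Figure D4:**
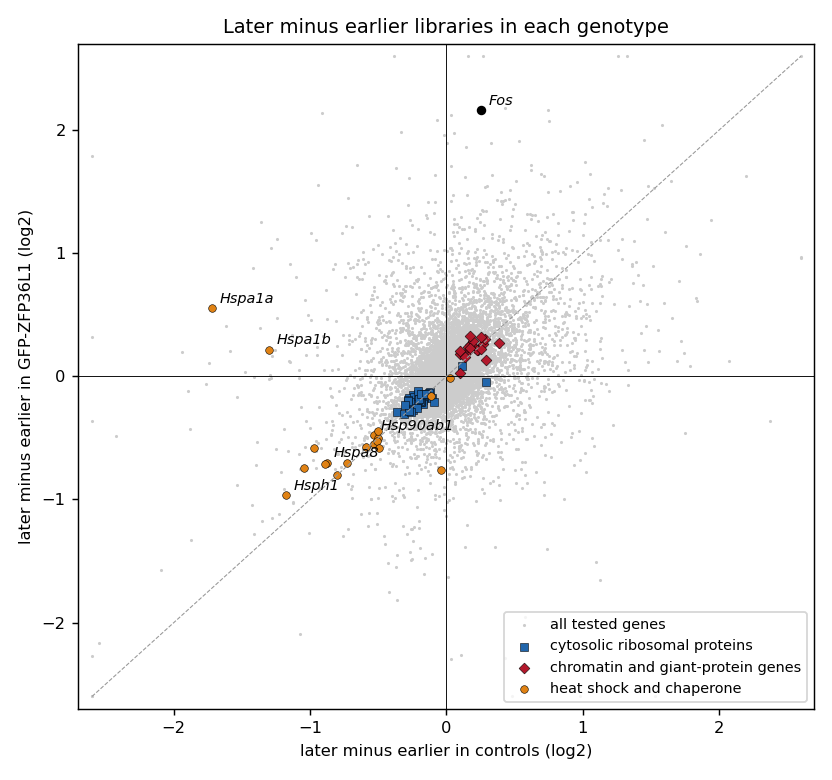
Later minus earlier log2 difference of each tested gene in controls (horizontal axis) and in GFP-ZFP36L1 libraries (vertical axis), drawn as grey points with 3 lists coloured and the diagonal dashed; 17 genes beyond 2.6 on either axis are drawn at that limit. Most heat shock genes lie at the lower left near the diagonal, Hspa1a and Hspa1b lie at the upper left, and Fos lies at 0.26 and 2.16.

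The 2 genotypes share no library, but the sets were chosen on an order seen in both, which favours agreement between them, so the next values support nothing. Over the 13486 genes the Pearson correlation of the later minus earlier difference in controls with that in GFP-ZFP36L1 libraries was 0.39, a description across genes, which are not replicates, and 70.3% of genes had the same sign. Fitted alone, controls gave 2 called genes and GFP-ZFP36L1 libraries 4, with 2 libraries on each side. The genotype by set interaction called no gene (0%) in edgeR, and 358 genes (2.65%) had an unadjusted p under 0.05. DESeq2 called 3 (Fos, Ppp1r16b and Rap1gap2) and limma voom 0. An order common to both genotypes chose the sets, which bears on this count too, so a low number is not read as agreement. On simulated counts the edgeR interaction fit called 16.5% of true log2 changes of 0.5 and 59.8% of those of 1, a further limit.

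Immediate early genes, which answer cell stimulation within minutes, held the gene with the smallest DESeq2 p, Fos, which was also among the highest loadings of the component that chose the sets. Fos was at 13.1, 10.2, 12.7 and 15.1 CPM in controls and at 8.85, 8.48, 30.9 and 46.7 CPM in GFP-ZFP36L1 libraries. All controls were alike, and both later GFP-ZFP36L1 libraries stood above the other 6. Its difference was 0.26 in controls and 2.16 in GFP-ZFP36L1 libraries, an interaction of 1.91 ± 0.28. Its adjusted p was 1 in edgeR, between 5.37e-28 and 1 over the alternatives, and 9.18e-10 in DESeq2. Its partner Jun was at 33.4, 33.2, 33.7 and 40.9 CPM in controls and at 39.1, 41.4, 69.6 and 74.3 CPM in the others. Dusp1, a MAP kinase phosphatase, went from 8.04 and 6.53 to 12.1 and 16.1 CPM in GFP-ZFP36L1 libraries and stayed at 7.45 to 8.33 CPM in controls. Ppp1r15a (GADD34) went from 32.1 and 25.6 to 47.6 and 56.3 CPM in GFP-ZFP36L1 libraries and was at 29.6 to 35.5 CPM in controls. None of Jun, Dusp1 and Ppp1r15a was called for the interaction by edgeR or DESeq2 on the 13486 genes, and these genes were chosen after their values were seen. Egr1, another immediate early factor, was at 15.01 to 19.2 CPM in controls and 12.6 to 19.1 CPM in the others, with overlapping sets. Egr3 rose in both genotypes, from 29.0 and 28.0 to 34.5 and 36.4 CPM in controls. In GFP-ZFP36L1 libraries it went from 31.6 and 31.2 to 33.3 and 37.2 CPM. Of the 31 tested genes of the immediate early list 19 lay above 0, at a median of 0.08, and none was called between the sets. No overlap in either genotype was seen in 2 of the 31 upward, Egr3 among them, and 2 downward, where 8.34% and 9.31% of all genes did so.

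The interferon-stimulated list of antiviral genes had 29 of 39 genes above 0 at a median of 0.14, with none called, none free of overlap, and 7 called higher and 1 lower by the line. Mean levels of its members were highest in fo8g and fo4g (0.48 and 0.32 above the average of the 8 libraries on the log2 scale), 1 from each set. The interferon element core, TTTC and TTTC with any 2 bases between, on either strand, was in the windows of 19 of the 29 members with an entry, against 3.99% of all genes. That share describes the promoters of the list and says nothing about the library order. Lists of glycolysis and hypoxia (17 of 24 below 0, median -0.07), cholesterol synthesis (15 of 23 below 0, median -0.06), cell division, clock genes and the glucocorticoid response held no called gene. The same held for NF-kB response and activation, with 18 of 24 below 0 at -0.08.

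**Figure D5:**
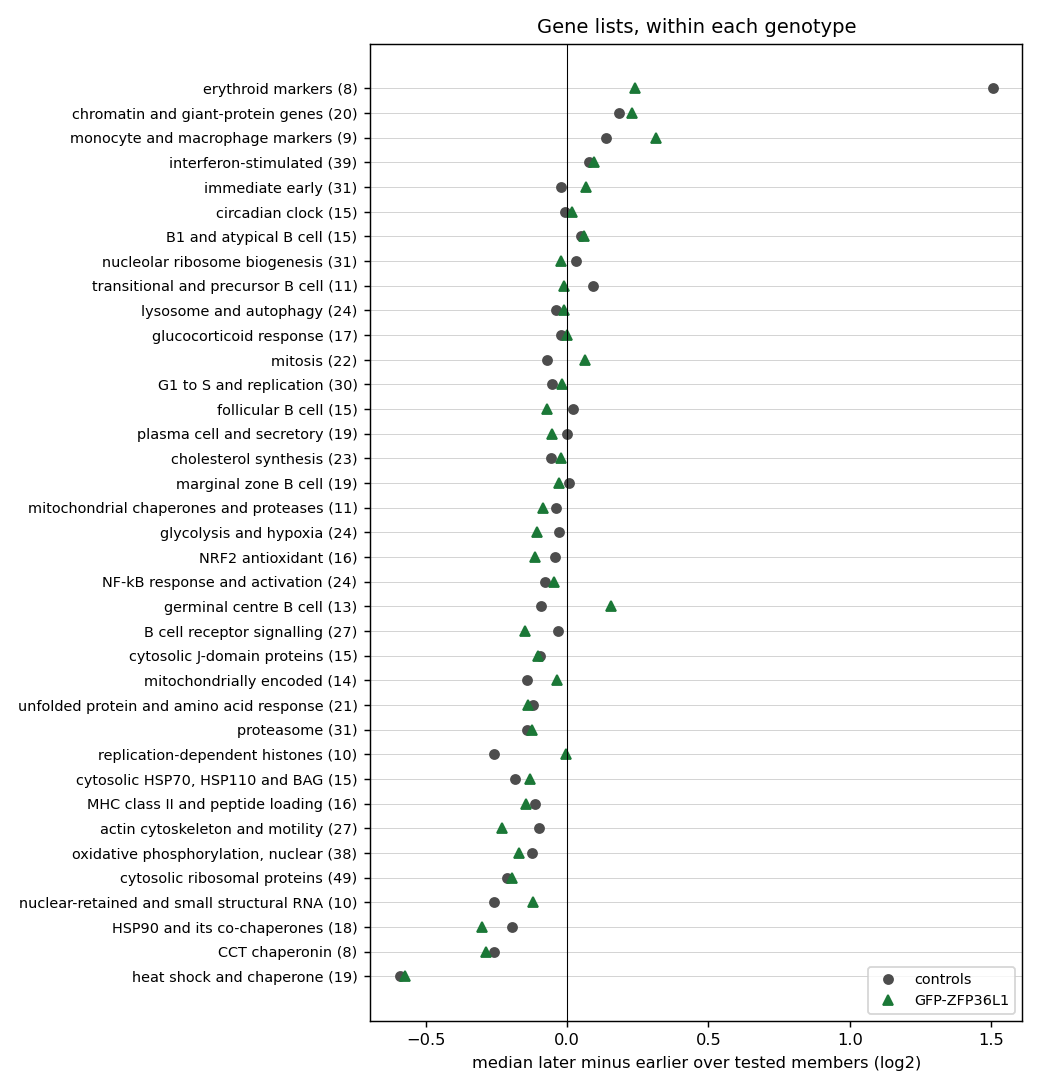
Median later minus earlier log2 difference over the tested members of each list with 8 or more (horizontal axis), with circles for controls, triangles for GFP-ZFP36L1 libraries and the number of tested members in parentheses. The heat shock list is the lowest, at -0.59 and -0.57, and the erythroid markers differ most between genotypes, at 1.51 in controls and 0.24 in GFP-ZFP36L1 libraries.

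Taking the sets into account changed what the genotype comparison called. With the set as a term, 802 genes differed between GFP-ZFP36L1 and control libraries (5.95%; 458 higher and 344 lower), and with genotype as the sole term 399 did (2.96%; 233 higher and 166 lower). Of the 399, 398 were also among the 802. The sets were chosen from these same values by an order within each genotype, which favours a smaller error with the set as a term. The larger count and the smaller adjusted p values in that fit are therefore not read as a gain in sensitivity. With the length and GC trend removed the split was 481 higher and 658 lower. Zfp36l1 was among the genes called lower in the libraries labelled GFP-ZFP36L1 in both fits, at -0.32 with the set as a term and edgeR adjusted p of 0.0103, against 0.0353 without it. Without fo5g the count with the set as a term was 221, without fo7g 301, without fo8g 397, without fo4g 520 and without fo1g 529.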

How the data were processed

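RNA from 8 sorted splenic follicular B cell samples was sequenced as stranded 100 bp paired-end libraries. The authors deposited a table of whole-number counts per Ensembl gene. The submitters' processing notes name GRCm38 and the tools TopHat2 2.0.12, Trim Galore, DESeq2 1.10.1 and HTSeq. They leave the strand setting of HTSeq unstated, so overlapping and antisense genes cannot be told apart. Their normalized and comparison tables were not used. Of 43629 gene IDs, 42462 matched a GENCODE M21 symbol.

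Counts were filtered with edgeR's filterByExpr (13486 genes kept), scaled by TMM and fitted with edgeR 4.0.16 (robust quasi-likelihood, R 4.3.3), with terms for genotype and for the later or earlier set; log2 CPM used a prior count of 2. CPM values are TMM-scaled. Alternatives used DESeq2 1.42.0, limma 3.58.1, other scalings, filters and covariates, thinned counts and each library left out. The fits were tested on simulated counts. No pair of libraries agreed within sampling noise.

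Genes named are the 15 with the largest change each way among called genes at a mean of 5 CPM or more without overlap in either genotype (no immunoglobulin segments, predicted genes or pseudogenes), up to 4 per list by p, up to 5 of the interaction, the 5 each way most like the order, and Zfp36l1 and Gt(ROSA)26Sor. The members, the 39 lists and the 10 added lists were chosen with earlier results of these data known, and the added lists, the heat shock element and the immediate early examples after these values were seen. Some genes that these rules name are not reported here.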

Additional observations from a re-analysis of the deposited data

Results flagged for a closer look

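In 100 groups of 4 libraries looked at for genes and library measures, 2 had a library set apart from the other 3 by more than Dixon's 95% critical value. Chance gives such a gap in about 1 in 20 groups. Jun was highest in the control fo7g, at 40.9 CPM against 33.2 to 33.7 in the other controls. Zfp36l1 was highest in the control fo1g, at 600.2 CPM against 523.4 to 534.4 in the other controls.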

How the results depend on the processing

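No paired analysis was run, because each title number occurs once and the columns carry no replicate number shared between genotypes. The genotypes alternate in title number, but the labels do not say whether neighbouring numbers belong together. The 40 genes called between the sets became 1417 with no filter on low counts, 23 at 1 CPM in 4 libraries, 552 with DESeq2, 71 with limma voom, 106 with the length and GC trend removed, 9 with no genotype term and 2712 with title number as a line; leaving out 1 library gave 1 to 238. The interaction count of 0 became 60 without the filter, 3 with DESeq2 and 0 to 2 with a library left out (2 without fo6g). Within controls the 2 calls became 222 without the filter, 23 with DESeq2 and 0 to 15 with a library left out. Within GFP-ZFP36L1 libraries the 4 became 666, 123 and 0 to 81 (81 without fo6g, 0 without fo4g). The genotype count of 802 became 1622 without the filter, 399 with genotype as the sole term and 221 to 1167 with a library left out. Causes of these changes were not tested. Genes in strict order numbered 716, and 655 to 696 under RLE factors, upper-quartile factors and thinning, which were chosen after seeing the data. Hsf1, at 0.006, was -0.003 without the filter, -0.015 with the length and GC trend removed, -0.016 with the line, and -0.027 to 0.033 with a library left out (-0.001 without fo2g, -0.027 without fo3g, -0.001 without fo5g and -0.008 without fo6g). Of the 25 largest called genes, all kept the call under RLE and upper-quartile factors, DESeq2, limma voom and no filter, 24 lost it without fo7g and 23 without fo1g. The list medians examined kept their sign under every alternative. With 2 libraries per genotype and set, their number limits the precision.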
